A study of Homo sapiens with 12 samples.

Results

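Nucleic acid sensing was examined through 10 genes fixed by symbol in the table of gene counts: IFIH1, DHX58, EIF2AK2, ADAR, TLR3, MAVS, CGAS, STING1, TBK1 and IRF3. All 10 were found among 17085 genes, and all 10 were among the 12841 genes tested. The cells were 786-O, an established human clear cell renal carcinoma line labelled as wild type, and every group was exposed for 24 h. DMSO was the vehicle control. Everolimus inhibits mTOR complex 1 and was given at 5 µM according to the treatment label of those samples and the study's methods, although the protocol text for the same samples says 10 µM. SGI-1027 is a quinoline inhibitor of DNA methyltransferases and was given at 1.5 µM. The combination held everolimus at 5 µM with SGI-1027 at 1.5 µM. Each of the 4 groups had 3 libraries of bulk RNA, and nothing states whether these came from separate cultures, so p values measure the spread between these libraries only.

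Cells detect foreign or misplaced nucleic acids with separate receptors for RNA and DNA. MDA5 (IFIH1) and LGP2 (DHX58) bind double-stranded RNA in the cytosol, MDA5 signals through MAVS on the outer mitochondrial membrane, TLR3 binds double-stranded RNA in endosomes, and cGAS (CGAS) binds cytosolic DNA and makes the messenger cGAMP, which activates STING1. These routes meet at the kinase TBK1 and its substrate IRF3, the transcription factor that switches on interferon genes. PKR (EIF2AK2) also binds double-stranded RNA and stops translation through eIF2, while ADAR edits such RNA and makes it less visible to the sensors.

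The largest increases in the combination were in 3 genes whose products bind double-stranded RNA. IFIH1 was 4.65-fold, DHX58 6.43-fold and EIF2AK2 2.23-fold above DMSO, and the SGI-1027 group alone held most of each increase. TLR3 and ADAR, whose products also act on such RNA, were 1.31-fold and 1.34-fold above DMSO in the combination, less than STING1. STING1 was higher in all 3 treated groups by 1.75-fold to 1.96-fold. CGAS and IRF3 were lower in all 3 treated groups, and MAVS and TBK1, steps between MDA5 and IRF3, differed from DMSO by 1.11-fold or less. The statements are about RNA in a bulk extract, in which more cells with a transcript and more transcript per cell cannot be told apart. The paper reports early release of lactate dehydrogenase, a sign of membrane damage, from this line with both drugs but not with either alone. The doses in that assay were those of the study's sequencing methods. The combination libraries may thus hold RNA of dying cells or of the cells that survived. How far this affects the comparisons of the combination, and the interaction, was not tested.

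Counted over the 10 genes at an adjusted p under 0.05 (edgeR quasi-likelihood test, Benjamini-Hochberg over all tested genes), everolimus against DMSO gave 4 higher (IFIH1, DHX58, MAVS and STING1) and 2 lower (CGAS and IRF3), with 27.2% of all tested genes called higher and 29.2% lower. The count of 4 was 3 in some fits that left out a library, which lost MAVS. SGI-1027 against DMSO gave 7 higher and 2 lower, with 32% and 30.6% of all tested genes called in those directions. The combination against DMSO gave the same split of 7 and 2, with 32.8% and 33.4% called among all tested genes. TBK1 was the gene not called in either of these. The median log2 fold change of the 10 genes was 0.02 in the everolimus comparison, 0.45 in that of SGI-1027 and 0.41 in that of the combination, and that of all tested genes lay within 0.02 of 0 each time. At the cut-off used in the study (unadjusted p under 0.05, log2 change of 1 or more in either direction), everolimus had 1 gene higher (DHX58; 3.89% of all tested genes), SGI-1027 had 2 (IFIH1 and DHX58; 6.25%) and the combination had 3 (IFIH1, DHX58 and EIF2AK2; 7.25%). The 3 comparisons share the same DMSO libraries.

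**Figure D1:**
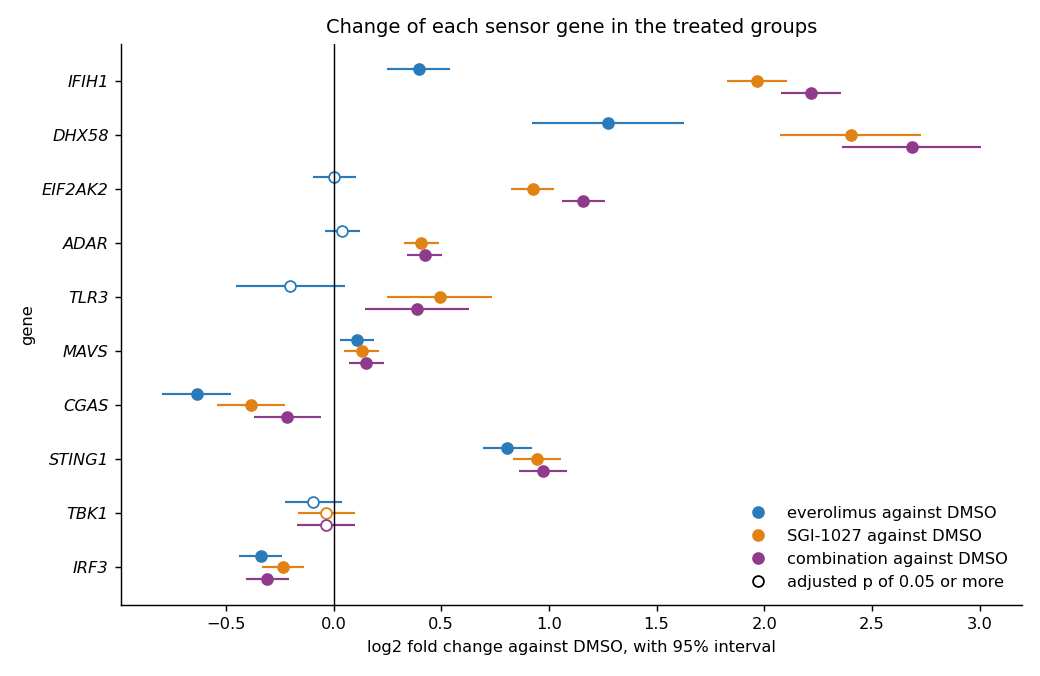
Log2 fold change against DMSO (horizontal axis) of each of the 10 genes (vertical axis) with its 95% interval from the edgeR fit, in everolimus, SGI-1027 and the combination; open circles mark an adjusted p of 0.05 or more. IFIH1, DHX58 and EIF2AK2 reach 2.22, 2.68 and 1.16 in the combination, CGAS and IRF3 lie left of 0 in every group, and all 3 intervals of TBK1 cross 0.

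IFIH1 encodes MDA5, which recognises long double-stranded RNA. Its normalized CPM (counts scaled to library size with TMM factors) was 18.4, 20.5 and 17.9 in the DMSO libraries, 25.0, 24.8 and 25.0 with everolimus, 73.4, 67.1 and 81.6 with SGI-1027, and 87.9, 89.9 and 86.8 with the combination. The groups did not overlap anywhere in this order. The log2 fold change against DMSO was 0.39 ± 0.07 (SE; adjusted p = 9.63e-05) with everolimus, 1.97 ± 0.07 (adjusted p = 6.35e-14) with SGI-1027 and 2.22 ± 0.07 (adjusted p = 6.4e-15) with the combination. Each step between neighbouring groups passed the test, the smallest being the combination over SGI-1027 (log2 fold change 0.25 ± 0.06; adjusted p = 0.00575).

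DHX58 encodes LGP2, a helicase without signalling domains that assists MDA5. It was the scarcest of the 10 genes in DMSO, with 55, 42 and 43 counts, against 101, 122 and 116 with everolimus, 218, 250 and 267 with SGI-1027, and 278, 337 and 287 with the combination. In normalized CPM the group means were 1.21 ± 0.24, 2.91 ± 0.16, 6.37 ± 0.76 and 7.75 ± 0.63 (SD, n = 3). All treated libraries lay above all DMSO libraries. Against DMSO, the log2 fold change was 1.28 ± 0.17 (SE; adjusted p = 3.86e-06) with everolimus, 2.40 ± 0.16 (adjusted p = 3.19e-10) with SGI-1027 and 2.68 ± 0.15 (adjusted p = 3.88e-11) with the combination, the largest of the 10 genes in each comparison. By limma on log2(FPKM + 1) these values were 0.54, 1.23 and 1.45, since a pseudocount of 1 is above the FPKM of the gene in DMSO. The combination and SGI-1027 differed by a log2 value of 0.28 (95% interval 0.02 to 0.55), which missed the threshold (adjusted p = 0.133).

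EIF2AK2 encodes PKR, the kinase that phosphorylates eIF2 once it has bound double-stranded RNA. The DMSO libraries had 88.3, 96.6 and 95.5 normalized CPM and the everolimus libraries 95.4, 93.4 and 92.2, and these overlapped (log2 fold change 0.0032, 95% interval -0.10 to 0.10). The SGI-1027 libraries had 172.9, 170.9 and 188.3 and the combination libraries 201.2, 217.8 and 206.7. The log2 fold change was 0.92 ± 0.05 (SE; adjusted p = 1.47e-11) with SGI-1027 and 1.16 ± 0.05 (adjusted p = 3.64e-13) with the combination. The combination also exceeded SGI-1027 alone, by 0.23 ± 0.05 on the log2 scale (adjusted p = 0.00133), although everolimus on its own left the gene at the DMSO level within the interval given.

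ADAR, the editing enzyme, was the most abundant of the 10. Its normalized CPM ranged from 495.0 to 503.3 in DMSO, from 506.4 to 521.7 with everolimus, from 637.0 to 704.2 with SGI-1027 and from 661.0 to 680.6 with the combination. It rose by 0.41 ± 0.04 (SE; adjusted p = 4.32e-08) on the log2 scale with SGI-1027 and by 0.42 ± 0.04 (adjusted p = 1.98e-08) with the combination. The everolimus value was 0.04 (95% interval -0.04 to 0.12; adjusted p = 0.382). The combination and SGI-1027 libraries overlapped and differed by 0.02 (95% interval -0.06 to 0.10).

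TLR3, the endosomal receptor, had 175 to 376 counts per library and so wider intervals. Its normalized CPM ranged from 5.95 to 7.08 in DMSO, from 4.57 to 6.25 with everolimus, from 8.40 to 9.64 with SGI-1027 and from 8.04 to 9.05 with the combination. All libraries that received SGI-1027 lay above all that did not. Against DMSO, the log2 fold change was 0.49 ± 0.11 (SE; adjusted p = 0.00117) with SGI-1027, 0.39 ± 0.12 (adjusted p = 0.00674) with the combination and -0.20 (95% interval -0.45 to 0.05; adjusted p = 0.163) with everolimus.

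**Figure D2:**
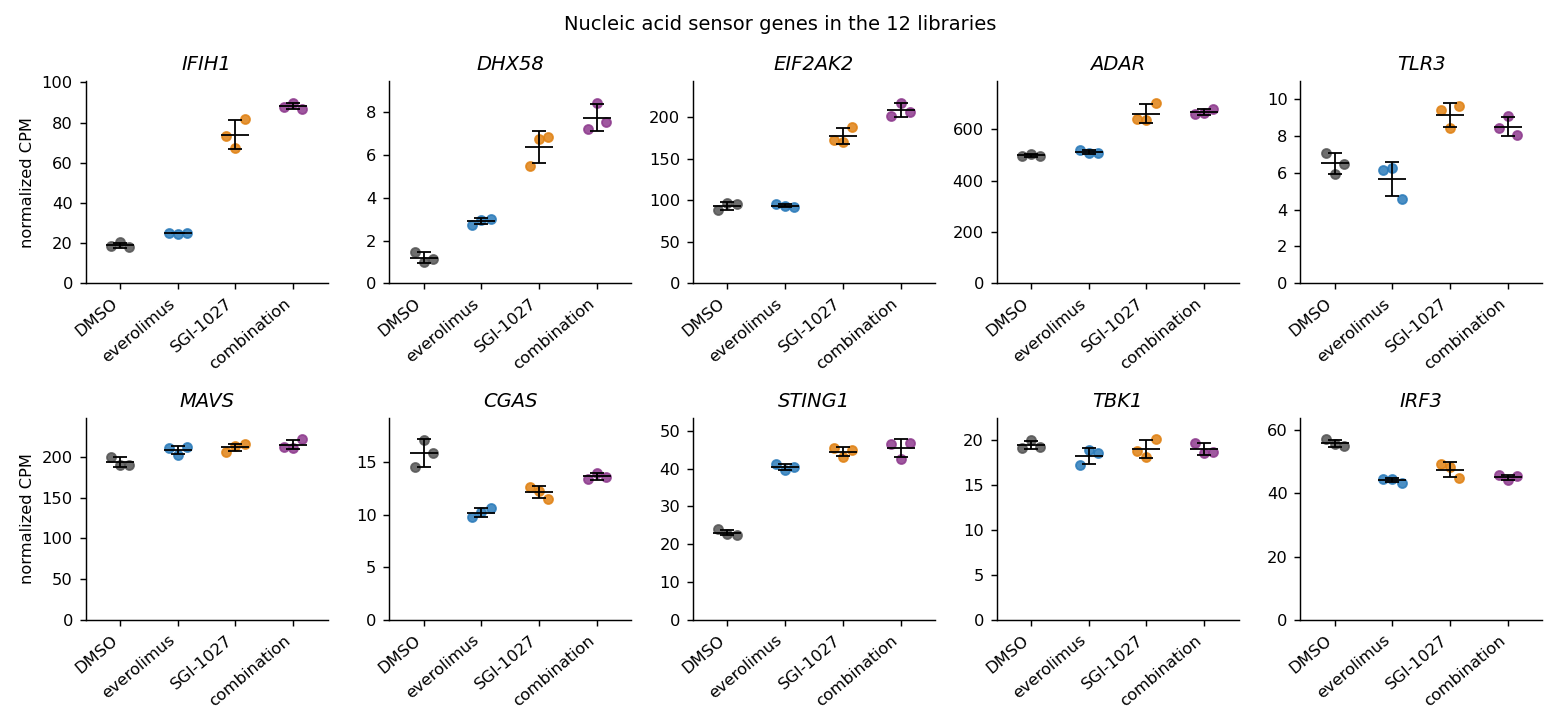
Normalized CPM (vertical axes, starting at 0, one scale per gene) of the 10 genes in the 12 libraries by treatment group (horizontal axes); points are libraries, black bars the mean and SD of 3. The SGI-1027 and combination points of IFIH1, DHX58, EIF2AK2, ADAR and TLR3 stand above all DMSO and everolimus points, STING1 is higher in every treated group, and CGAS and IRF3 are highest in DMSO.

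Promoters were read where a window was given, whether or not the gene rose. Windows of 300 bases around annotated starts (250 before, 50 from the start on; RefSeq, GRCh38.p14) were at hand for 6 of the 10 genes: IFIH1, EIF2AK2, ADAR, TLR3, MAVS and TBK1. They were searched on both strands for GAAANNGAAA, the core of the interferon-stimulated response element that ISGF3 and IRF proteins bind. IFIH1, EIF2AK2 and TLR3 held it and ADAR (in 3 windows), MAVS and TBK1 did not, while 4.17% of the 10378 tested genes with a window held it. The stretches below run from 80 bases before the start to 20 bases from the start on, 5′ to 3′ on the gene's strand, with the motif in capitals, so that its place relative to the start can be compared; TBK1 is shown as a gene without it.
IFIH1: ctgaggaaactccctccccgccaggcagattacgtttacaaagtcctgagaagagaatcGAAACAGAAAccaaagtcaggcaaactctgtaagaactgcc
EIF2AK2: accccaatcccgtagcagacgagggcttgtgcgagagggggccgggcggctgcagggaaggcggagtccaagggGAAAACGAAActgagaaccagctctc
TLR3: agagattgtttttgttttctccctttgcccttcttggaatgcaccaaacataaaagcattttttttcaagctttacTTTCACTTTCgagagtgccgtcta
TBK1: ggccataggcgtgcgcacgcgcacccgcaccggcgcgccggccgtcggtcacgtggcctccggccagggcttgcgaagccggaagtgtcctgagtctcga

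These stretches are chr2:162318665-162318764 on the minus strand for IFIH1, chr2:37156961-37157060 on the minus strand for EIF2AK2, chr4:186069076-186069175 on the plus strand for TLR3 and chr12:64452040-64452139 on the plus strand for TBK1. Counting the base before the start as -1 and the start as 1, the motif spans -21 to -12 in IFIH1, -6 to 4 in EIF2AK2 and -4 to 6 in TLR3, where it is on the opposite strand and reads as its reverse complement. The IFIH1 window holds another pair of overlapping matches on the opposite strand, at -159 to -150 and -153 to -144. A match of letters is a description of the window and was not measured as a bound site in these cells.

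MAVS, the adaptor through which MDA5 signals, was called higher in every treated group but by little. Its normalized CPM ranged from 189.8 to 200.2 in DMSO and from 202.6 to 221.3 over the 9 treated libraries. The log2 fold change was 0.11 ± 0.04 (SE; adjusted p = 0.0198) with everolimus, 0.13 ± 0.04 (adjusted p = 0.00618) with SGI-1027 and 0.15 ± 0.04 (adjusted p = 0.0017) with the combination. The treated groups overlapped one another. The everolimus call was lost without a filter on low counts (adjusted p = 0.0561) and without DMSO replicate 2, DMSO replicate 3, everolimus replicate 1 or everolimus replicate 3 (adjusted p from 0.0693 to 0.0778).

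The DNA sensing pair moved in opposite directions. CGAS, the DNA sensor itself, had 14.5, 17.1 and 15.9 normalized CPM in DMSO, 9.76, 10.3 and 10.6 with everolimus, 12.7, 12.2 and 11.5 with SGI-1027, and 13.4, 14.0 and 13.6 with the combination. Everolimus alone gave the lowest libraries and no treated library reached the DMSO range. Against DMSO, the log2 fold change was -0.63 ± 0.08 (SE; adjusted p = 1.4e-06) with everolimus, -0.38 ± 0.08 (adjusted p = 0.000227) with SGI-1027 and -0.21 ± 0.07 (adjusted p = 0.0168) with the combination. The last call rests on DMSO replicate 2 and combination replicate 1: without the first the value was -0.15 (adjusted p = 0.121) and without the second -0.19 (adjusted p = 0.0595), and with upper-quartile factors it was -0.16 (adjusted p = 0.0715).

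STING1, the adaptor on the endoplasmic reticulum that cGAMP activates, had 23.9, 22.8 and 22.6 normalized CPM in DMSO, 41.2, 39.7 and 40.4 with everolimus, 45.4, 43.1 and 44.9 with SGI-1027, and 46.6, 42.6 and 46.8 with the combination. Every treated library was far above every DMSO library, and the combination overlapped SGI-1027. The log2 fold change was 0.81 ± 0.05 (SE; adjusted p = 7.04e-10) with everolimus, 0.95 ± 0.05 (adjusted p = 4.43e-11) with SGI-1027 and 0.97 ± 0.05 (adjusted p = 1.82e-11) with the combination. Of the 4 genes called higher with everolimus, it had the second largest fold change after DHX58.

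TBK1, the kinase on which the MAVS, TLR3 and STING1 routes converge, was not called in any comparison. Its normalized CPM ranged from 17.3 to 20.1 over all 12 libraries. Against DMSO, the log2 fold change was -0.09 (95% interval -0.23 to 0.04) with everolimus, -0.03 (-0.17 to 0.10) with SGI-1027 and -0.03 (-0.17 to 0.10) with the combination. In GENCODE v29, 14.7% of the exon bases of TBK1 overlap exons of AC135279.3 on the opposite strand, a gene without counts here. Strand use in counting is not stated, and the part of that gene in the TBK1 values was not tested.

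IRF3, the transcription factor that TBK1 phosphorylates, had 57.0, 55.6 and 54.9 normalized CPM in DMSO, 44.4, 44.6 and 43.4 with everolimus, 49.2, 48.4 and 44.7 with SGI-1027, and 45.8, 44.2 and 45.3 with the combination. All DMSO libraries lay above all treated ones, and the combination overlapped both single drugs. The log2 fold change was -0.34 ± 0.05 (SE; adjusted p = 7.7e-06) with everolimus, -0.23 ± 0.05 (adjusted p = 0.000285) with SGI-1027 and -0.31 ± 0.05 (adjusted p = 1.48e-05) with the combination. In GENCODE v29, 19.3% of the exon bases of IRF3 overlap exons of BCL2L12 on the opposite strand, and whether the counting used strand is not stated, so reads of the pair may not be separable. BCL2L12 was also lower, by log2 values of -0.56, -0.76 and -0.93 in the same order of comparisons. Its part in the IRF3 values was not tested.

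Adding SGI-1027 to everolimus addressed whether the sensor genes differ between cells on everolimus alone and on both drugs. If everolimus alone was at 10 µM, as the protocol text says, the 2 groups also differ in everolimus dose. The combination against everolimus gave 7 genes higher and 0 lower by edgeR (0 lower by DESeq2 too), with 20.1% and 19.2% of all tested genes called in those directions. On the log2 scale the change was 1.82 ± 0.06 (SE) for IFIH1, 1.41 ± 0.14 for DHX58, 1.16 ± 0.05 for EIF2AK2, 0.59 ± 0.12 for TLR3, 0.42 ± 0.08 for CGAS, 0.38 ± 0.04 for ADAR and 0.17 ± 0.05 for STING1, with adjusted p values from 2.28e-13 to 0.0151. The STING1 call was lost without everolimus replicate 2, combination replicate 1 or combination replicate 3 (adjusted p from 0.055 to 0.0715). None of the 10 had a negative estimate, the lowest being IRF3 at 0.03 (95% interval -0.07 to 0.13; unadjusted p = 0.516).

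Adding everolimus to SGI-1027 changed fewer of the genes. The combination against SGI-1027 gave 2 higher, IFIH1 and EIF2AK2 as above, and 0 lower by edgeR and by DESeq2, with 9.4% and 10.2% of all tested genes called. CGAS was 0.17 higher on the log2 scale (95% interval 0.01 to 0.33) with an unadjusted p of 0.0382 and an adjusted p of 0.132, and no gene with a negative estimate had an unadjusted p under 0.05. The remaining estimates, leaving out DHX58 given above, lay between -0.10 (TLR3) and 0.03 (STING1).

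SGI-1027 against everolimus, a comparison added after the data were seen, gave 6 genes higher (IFIH1, DHX58, EIF2AK2, ADAR, TLR3 and CGAS) and 0 lower by edgeR and by DESeq2, no estimate being below 0, with 13% and 9.51% of all tested genes called. The log2 differences were 1.57 ± 0.06 (SE) for IFIH1, 1.13 ± 0.14 for DHX58, 0.92 ± 0.05 for EIF2AK2, 0.69 ± 0.12 for TLR3, 0.37 ± 0.04 for ADAR and 0.25 ± 0.08 for CGAS. STING1 was 0.14 higher (95% interval 0.03 to 0.25; adjusted p = 0.0595). IRF3 was 0.10 higher (95% interval 0.0043 to 0.20; adjusted p = 0.128), and MAVS and TBK1 differed by 0.02 and 0.06 with intervals that cross 0. The count of 6 ranged from 5 to 7 when a library was left out, and was 7 without SGI-1027 replicate 3 and 7 without DMSO replicate 1.

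The interaction asked whether the combination differs from the sum of the log2 changes of the single drugs. It was above 0 for 3 genes (EIF2AK2, CGAS and IRF3) and below 0 for 2 (DHX58 and STING1), with 23.6% and 22.1% of all tested genes called in those directions. For STING1 the single changes sum to 1.75 and the combination reached 0.97, a difference of -0.78 ± 0.07 (SE; adjusted p = 1.58e-07). For DHX58 the sum was 3.68 and the combination 2.68, a difference of -0.99 ± 0.21 (adjusted p = 0.000877), which was -0.31 (adjusted p = 0.0195) by limma on log2(FPKM + 1), a scale that compresses the changes of scarce genes. STING1 stood at 0.81 and 0.95 with the single drugs, so each alone held most of the combination change.

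CGAS showed the reverse. The single changes sum to -1.02 and the combination stood at -0.21, a difference of 0.80 ± 0.11 (SE; adjusted p = 9.37e-06), so the gene was less reduced with both drugs than with everolimus alone. IRF3 had an interaction of 0.27 ± 0.07 (adjusted p = 0.00333), with changes of -0.34 and -0.23 in the single drugs and -0.31 in the combination. BCL2L12, which overlaps IRF3 on the opposite strand, had an interaction of 0.39 ± 0.09 (adjusted p = 0.00138). Its part in the IRF3 interaction was not tested. EIF2AK2 exceeded the sum by 0.23 ± 0.07 (adjusted p = 0.00874), a call that upper-quartile factors did not keep (0.16; adjusted p = 0.0545). IFIH1 had -0.14 (95% interval -0.34 to 0.05), so an additive response lies within its interval. These contrasts take everolimus alone and in combination as the same dose, which holds for 5 µM, the dose in the treatment label and in the study's methods for sequencing, and not for 10 µM in the protocol text.

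**Figure D3:**
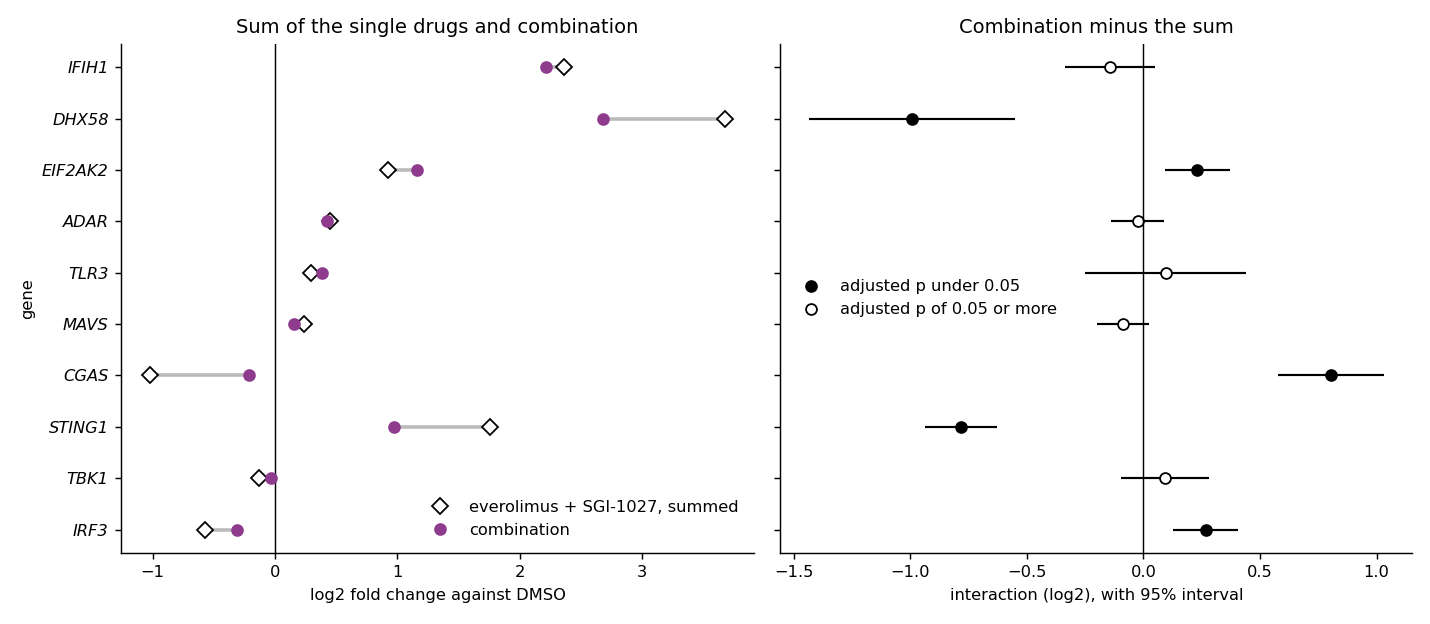
Left, log2 fold change against DMSO (horizontal axis) of the combination (filled circles) beside the sum of the everolimus and SGI-1027 changes (open diamonds) for each gene; right, their difference with its 95% interval, filled where the adjusted p is under 0.05. The combination falls short of the sum for DHX58 and STING1 by 0.99 and 0.78 and lies above it for CGAS by 0.80.

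Levels of different genes were compared in the deposited FPKM, which divides by gene length. In DMSO the order was ADAR (70.9 ± 0.6; SD, n = 3), IRF3 (30.8 ± 0.9), MAVS (16.2 ± 0.6), EIF2AK2 (9.33 ± 0.37), STING1 (9.32 ± 0.38), TBK1 (5.67 ± 0.12), IFIH1 (5.27 ± 0.37), CGAS (4.93 ± 0.38), TLR3 (1.08 ± 0.10) and DHX58 (0.46 ± 0.10). EIF2AK2 and STING1 overlapped, as did TBK1 with IFIH1 and IFIH1 with CGAS. In the combination IFIH1 had moved from place 7 to place 3, at 24.9 ± 0.5 FPKM and overlapping IRF3 at 25.3 ± 0.4. ADAR stayed first at 96.4 ± 1.5, and DHX58 at 3.01 ± 0.25 had passed TLR3 at 1.43 ± 0.09. The order depends on the length that FPKM divides by, which was 9972 bases for EIF2AK2 and 3581 for IFIH1. By normalized CPM, EIF2AK2 (208.6) stood above IFIH1 (88.2) in the combination. The reads of IRF3 may not be separable from those of BCL2L12, as given above.

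**Figure D4:**
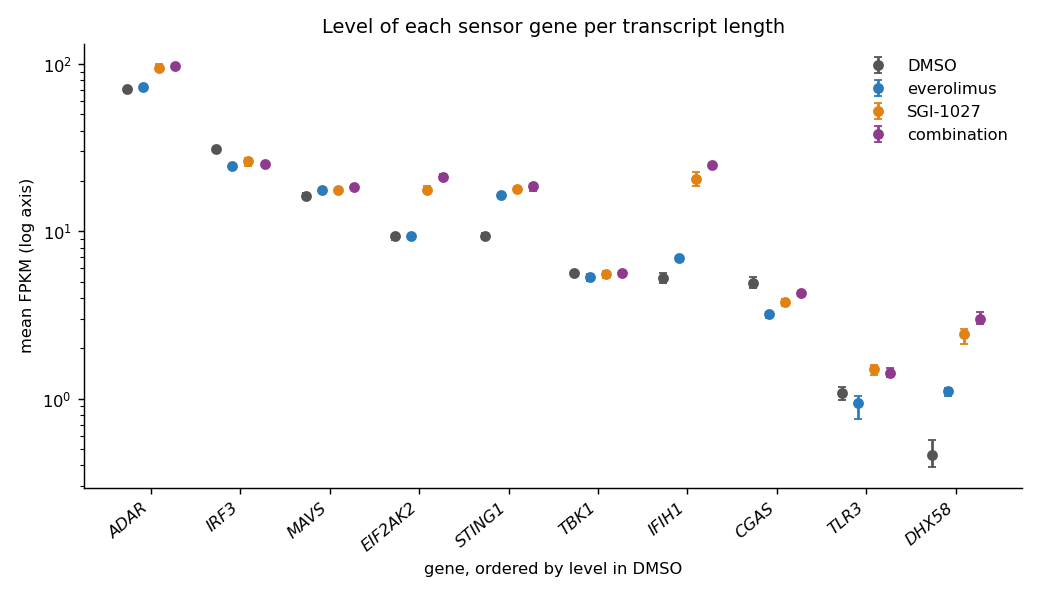
Mean FPKM on a log axis (vertical) of the 10 genes in order of their DMSO level (horizontal), by treatment group; bars run from the lowest to the highest of 3 libraries. IFIH1 climbs from 5.27 in DMSO to 24.9 in the combination and meets IRF3, while TBK1 stays between 5.33 and 5.67.

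The genes whose log2 CPM followed the 3 strongest sensors most closely over the 12 libraries were read as a description, since all points share 4 treatment groups. For IFIH1 these were IFIT3 (Pearson r = 0.999), MX2 (0.998) and SAMD9 (0.997). For EIF2AK2 they were IFI44 (0.996), OAS1 (0.996) and AKAP12 (0.995). For DHX58 they were GALNT3 (0.992), MMP15 (0.991) and SHFL (0.990). Among the 10 genes, IFIH1 and ADAR had the highest r (0.986) and STING1 and IRF3 the lowest (-0.877).

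The counts of the pathway lists that follow stand beside 27.2% of all tested genes called higher and 29.2% lower with everolimus, 32% and 30.6% with SGI-1027, and 32.8% and 33.4% with the combination. Of 20 tested partners of RNA recognition, 8 rose and 8 fell with everolimus, 9 rose and 8 fell with SGI-1027, and 8 rose and 8 fell with the combination (median log2 fold change -0.02, 0.11 and 0.02). DDX60, a helicase induced by interferon, had mean normalized CPM of 20.1 ± 1.9 in DMSO, 36.6 ± 1.8 under everolimus, 65.8 ± 2.3 under SGI-1027 and 85.7 ± 0.2 under both (SD, n = 3), a log2 fold change of 2.09 ± 0.06 (SE; adjusted p = 4e-15) in the last. Its paralog DDX60L rose by 2.12 ± 0.07 (adjusted p = 4.05e-14), and the ubiquitin ligase TRIM25 by 1.02 ± 0.04 (adjusted p = 6.38e-13), again in the combination. With SGI-1027 alone DDX60L rose by 1.65 ± 0.07 (adjusted p = 2.53e-12). TRIM25 had mean normalized CPM of 147.3 in DMSO, 243.2 with SGI-1027 and 298.1 with the combination. DDX21, a helicase with a known role in ribosomal RNA synthesis, fell by 1.06 on the log2 scale with everolimus (adjusted p = 5.02e-12) and was lower in the other treated groups too (-0.89 and -0.86).

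Of 23 tested genes of DNA recognition and nucleic acid clearance, 4 rose and 13 fell with everolimus, 5 rose and 15 fell with SGI-1027, and 6 rose and 14 fell with the combination, with medians of -0.17, -0.23 and -0.30, where 29.2%, 30.6% and 33.4% of all tested genes were called lower. Those that rose furthest in the combination were SAMHD1, which breaks down deoxynucleotides (1.60 ± 0.07; adjusted p = 1.3e-12), the lysosomal nuclease DNASE2 (1.22 ± 0.05; adjusted p = 2.49e-13) and the DNA-binding protein IFI16 (1.05 ± 0.05; adjusted p = 4.54e-12). SAMHD1 rose by 1.24 ± 0.07 (adjusted p = 7.08e-11) with SGI-1027 alone and was lower with everolimus alone (-0.26; adjusted p = 0.00625). Mean normalized CPM in DMSO, SGI-1027 and the combination was 46.0, 86.4 and 107.0 for DNASE2 and 69.7, 133.3 and 144.8 for IFI16. SLC19A1, a folate carrier that also imports cyclic dinucleotides, changed by -1.004 with everolimus (adjusted p = 2.87e-09).

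Among 21 adaptors, kinases and transcription factors around TBK1 and IRF3, 7 rose and 4 fell with everolimus, 13 rose and 4 fell with SGI-1027, and 11 rose and 4 fell with the combination (medians 0.02, 0.24 and 0.16), where 27.2%, 32% and 32.8% of all tested genes were called higher. IRF7, the interferon-inducible relative of IRF3, had 1.74, 0.97 and 0.94 normalized CPM in DMSO and 7.09, 7.47 and 8.23 in the combination. Its log2 fold change was 0.76 ± 0.22 (SE; adjusted p = 0.00716) with everolimus, 2.16 ± 0.20 (adjusted p = 4.12e-08) with SGI-1027 and 2.64 ± 0.20 (adjusted p = 1.6e-09) with the combination. IRF5 rose by 1.15 ± 0.10 (adjusted p = 1.16e-08) with SGI-1027 and by 1.37 ± 0.10 (adjusted p = 7.12e-10) with the combination. TRAF5 rose by 1.31 ± 0.21 (adjusted p = 2.08e-05) in the combination. Its mean normalized CPM was 1.57 in DMSO, 2.66 with SGI-1027 and 3.88 with the combination. IRF3, whose reads may not be separable from those of BCL2L12, fell in the groups in which IRF5 and IRF7 rose.

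Of 16 brakes on these pathways, 5 rose and 4 fell with everolimus, 9 rose and 3 fell with SGI-1027, and 8 rose and 4 fell with the combination (medians -0.04, 0.21 and 0.10), beside the same 27.2%, 32% and 32.8% of all tested genes called higher. USP18, which removes ISG15 and blocks the interferon receptor, rose by 1.63 ± 0.09 (SE; adjusted p = 3.28e-11) with SGI-1027 and 1.996 ± 0.09 (adjusted p = 1.02e-12) with the combination. It fell with everolimus (-0.33 ± 0.10; adjusted p = 0.01). TNFAIP3, the ubiquitin-editing enzyme A20, rose in all 3 groups, by 0.80, 1.25 and 1.78.

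A list of the other eIF2 kinases, eIF2 itself, a PKR inhibitor and genes of the response to eIF2 phosphorylation had 9 tested genes, of which 2 rose in each treated group and 4, 3 and 4 fell with everolimus, SGI-1027 and the combination (medians -0.13, -0.04 and -0.09). Of all tested genes, 27.2% to 32.8% were called higher and 29.2% to 33.4% lower. PPP1R15A, the phosphatase subunit that reverses eIF2 phosphorylation, rose by 1.40 ± 0.06 (SE; adjusted p = 4.44e-13) in the combination, and DDIT3, a transcription factor of the same response, by 1.05 ± 0.07 (adjusted p = 7.54e-10). Mean normalized CPM in DMSO, SGI-1027 and the combination was 34.3, 57.7 and 90.3 for PPP1R15A and 8.99, 15.2 and 18.6 for DDIT3. ATF4, the factor translated when eIF2 is phosphorylated, had a log2 value of 0.01 in the combination (adjusted p = 0.825). Of the other eIF2 kinases in the combination, EIF2AK3 stood at -0.06 (adjusted p = 0.368), EIF2AK1 at -0.14 (adjusted p = 0.00143) and EIF2AK4 at -0.33 (adjusted p = 4.91e-06), beside 1.16 for EIF2AK2.

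STAT2 and IRF9 encode subunits of ISGF3, which carries the interferon signal to the nucleus, and both rose in every treated group. STAT2 had 36.7, 35.9 and 33.9 normalized CPM in DMSO, 65.3, 67.6 and 65.5 with everolimus, 149.0, 134.2 and 157.1 with SGI-1027, and 176.5, 180.1 and 183.2 with the combination, an order like that of IFIH1. IRF9 had log2 fold changes of 0.28, 1.26 and 1.37 in the same order of treatments. STAT2 was higher in the combination than with SGI-1027 alone (0.29 ± 0.05, SE; adjusted p = 0.000303).

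Transcripts of the listed interferon genes other than IFNE were close to undetected. Interferon genes outside the list were not examined. IFNB1 had 0 counts in all DMSO libraries and 0 to 4 in the treated ones, IFNL1 and IFNA1 had 0 or 1 in each library, and IFNL2, IFNL3 and IFNK had 0 throughout, where a count of 0 allows up to 0.0723 to 0.081 CPM per library (3 counts; counting error only). None of these 6 could be tested. IFNE passed the filter with 8 to 52 counts and was higher with everolimus alone (log2 fold change 1.48 ± 0.39, SE; adjusted p = 0.00337).

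The chemokines of the same list were measurable. CXCL10 had 18 to 35 counts in DMSO, 39 to 46 with everolimus, 128 to 203 with SGI-1027 and 89 to 99 with the combination. CXCL11 had 8 counts in each DMSO library, 22 to 28 with everolimus, 57 to 73 with SGI-1027 and 54 to 72 in the combination. CCL5 had 100 to 177 counts in DMSO, 179 to 186 with everolimus, 273 to 420 with SGI-1027 and 364 to 434 in the combination. Its log2 fold change was 1.14 ± 0.18 (SE; adjusted p = 2.27e-05) with SGI-1027 and 1.41 ± 0.18 (adjusted p = 1.28e-06) with the combination. The interaction of CXCL10 was -1.46 ± 0.33 (adjusted p = 0.00128).

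The libraries were alike in depth, with 37046231 to 41516976 counts and TMM factors from 0.990 to 1.01. All 8 markers of the renal carcinoma line were expressed, none of 7 leukocyte markers passed the filter (0.0761 to 0.406 CPM summed per library), and endothelial markers summed to 0.127 to 0.404 CPM. SGI-1027 replicate 3 and DMSO replicate 1 stood apart from their groups (chi-square per gene of 16.1 to 16.4 and 10.2 to 13.0 against their fellows, and 3.04 to 5.48 for all other pairs). Without SGI-1027 replicate 3 the counts of sensor genes against DMSO were unchanged at 7 higher and 2 lower with SGI-1027, and IFIH1 was 1.89. Without DMSO replicate 1 these counts were 7 and 2 as well, and DHX58 was 2.57.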

How the data were processed

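Bulk RNA of 786-O cells was sequenced in 12 libraries. The authors deposited a table of raw whole-number counts for gene symbols and a table of FPKM, which divide the same counts by library size and a fixed gene length. The aligner and counter are not given in the sources used here. The submitters' processing notes name the mouse builds GRCm38 and mm10, although the gene symbols are human. The library kit and the RNA extraction differ between the labels and the study's methods, so strand use is unknown.

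The count table was fitted by edgeR 4.0.16 (R 4.3.3): filterByExpr, TMM factors and a single quasi-likelihood fit of all 12 libraries, with contrasts between groups and an interaction contrast (prior count 0.125). Adjusted p values are Benjamini-Hochberg over 12841 genes. SEs are the log2 fold change divided by the square root of F, and intervals are 95%. The script was tested on simulated data. Alternatives were DESeq2 1.42.0, upper-quartile factors, no filter, at least 10 counts in every library, a replicate block, limma 3.58.1 on log2(FPKM + 1) and log2(FPKM + 0.1), and leaving out each library. Same-numbered libraries did not deviate together (r from -0.176 to 0.0358), so numbers were not taken as pairs.

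The 10 genes and the pathway lists were chosen with earlier results of these data known. Of list genes, those with an adjusted p under 0.05, a log2 change of 1 or more in either direction, 50 or more counts on average and libraries clear of the DMSO range are named (at most 5 per list and comparison), plus STAT2, IRF9 and the interferon and chemokine genes. Some listed genes are not reported here. ATF4, EIF2AK1, EIF2AK3 and EIF2AK4 were named after their values were seen. Other values of named genes are given for comparison. Of 28 DNA recognition genes listed, 27 were in the table.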

Additional observations from a re-analysis of the deposited data

Results flagged for a closer look

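The interaction, which is the combination change minus the sum of the single-drug changes, differed from 0 by edgeR's test for 5 of the 10 sensor genes (3 above 0 and 2 below), beside 23.6% of all tested genes above 0 and 22.1% below, so the count is near that of genes in general. On the log2 scale it was -0.99 for DHX58 and -0.78 for STING1, where the combination fell short of the sum, and 0.80 for CGAS, 0.27 for IRF3 and 0.23 for EIF2AK2, where it lay above the sum. The DHX58 value was -0.31 by limma on log2(FPKM + 1). BCL2L12, whose reads may not be separable from those of IRF3, had an interaction of 0.39. With everolimus at 10 µM in the group given that drug alone, as the protocol text has it, these values would compare unequal doses.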

How the results depend on the processing

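Across the 6 planned comparisons, the 60 log2 fold changes of the sensor genes were each recomputed under 19 alternatives. Of these 1140 values, 1105 kept their direction and their side of the threshold, 12 lost the call, 3 gained it and 20 changed sign, none of the latter with an adjusted p under 0.05. The number of sensor genes lower in the combination against DMSO was 2, and 1 with upper-quartile factors, and it ranged from 1 to 2 over the fits that left out a library. This was the CGAS call. The values that changed sign were near 0. EIF2AK2 with everolimus was -0.0082 without a filter and ranged from -0.0383 to 0.0268 when a library was left out. With upper-quartile factors TBK1 was 0.0207 with SGI-1027 and 0.0209 with the combination. TBK1 in the combination against SGI-1027 was 0.0062 by DESeq2, 2e-04 with upper-quartile factors, 0.0047 without a filter, 0.0174 and 0.0203 with limma at pseudocounts of 1 and 0.1, and -0.0317 to 0.0403 with a library left out. With a library left out, ADAR ranged from -0.0104 to 0.0633 in that comparison and from -0.0508 to 0.0231 in the interaction, and TLR3 in the interaction from -0.0338 to 0.179. MAVS with everolimus lost its call without DMSO replicate 2 or 3 or everolimus replicate 1 or 3. Upper-quartile factors added calls for ADAR with everolimus (0.11; adjusted p = 0.013) and the MAVS interaction (-0.16; adjusted p = 0.02), and limma with a pseudocount of 1 added DHX58 in the combination against SGI-1027 (0.22; adjusted p = 0.0396). The same fit took DHX58 from 2.68 to 1.45 in the combination against DMSO and from 1.41 to 0.92 in the combination against everolimus. The causes of lost and gained calls were not tested. The replicate block moved no call of a sensor gene: with it the combination against DMSO had 7 higher and 2 lower, and IFIH1 stood at 2.22. Of 12 libraries, 1 lay closest to its own number in the other groups.

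Over all tested genes, upper-quartile factors moved the share of calls that were higher from 48.2% to 60.7% with everolimus and from 51.7% to 39.5% in the interaction, and shifted the median by up to 0.0739. Limma with a pseudocount of 1 moved it from 47.9% to 58.4% in the combination against SGI-1027. With 3 against 3 libraries an exact permutation test cannot go below 0.1, so calls rest on spread shared over genes. The result is from a single cell line at a single time.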
